A study of Solanum lycopersicum with 6 samples.

Results

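The WRKY genes of tomato roots were followed through protoplasting, the digestion of root cell walls that releases single cells. WRKY proteins are plant transcription factors named after a conserved stretch of amino acids in their DNA-binding domain, which also holds a zinc finger and binds a short promoter element called the W-box. The family is large in flowering plants, and many of its members are known to respond within hours to wounding, to microbes and to fragments of the cell wall, often downstream of MAP kinases, while others act in nutrient supply, senescence and development. A list of 60 WRKY loci, chosen with earlier results of these data known, was matched to the gene models of the count table by locus identifier. The matching itself used no measured value. Shares of the family set beside those of all genes are therefore description only. Of the 60 loci, 54 were found among 34688 gene models, and the other 6 were not analysed here. The table gives identifiers only, so membership could not be tested against sequence. A functional annotation was in hand for a single member, Solyc02g093050, described as WRKY transcription factor 8. The other loci are called by their identifiers.

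The protoplasted group and the whole-root group each held 3 libraries of wild-type *Solanum lycopersicum* cv. M82. All roots were 7 days old and were cut about 3 cm from the tip, with 50 to 100 primary roots in each sample. Protoplasted roots were digested with cellulases, macerozyme and pectolyase in mannitol for 2 h at 25 °C, and the released cells were strained and washed, whereas whole roots had no treatment. No mock incubation is named for the whole roots, so enzymes, osmoticum, incubation time and handling cannot be told apart.

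Each library held between 5198513 and 5790082 estimated counts. Libraries of this kind sample the 3′ ends of transcripts, so levels are given as CPM (counts scaled to a common library size) after TMM normalization, not divided by transcript length, and loci are set side by side on that scale only. For a locus at 0, the upper limit from counting error alone is 3 counts. Over the raw library totals this is 0.518 to 0.577 CPM, without the TMM factors applied to the other CPM values. The study's 50 genes of the exodermal trajectory, which mark the maturing exodermis, moved with the groups. In protoplasts 48 of the 49 tested were lower (adjusted p under 0.05 in edgeR), with a median log2 fold change of -5.71. Over all genes tested 18.7% were lower, and the median log2 fold change was 0.02. Per the methods, genes called protoplast-induced in bulk RNA were removed before the single-cell analysis that gave the trajectory. A gene with a strong rise was thus kept off the list in advance, and the absence of such markers is no result. The markers and all genes are therefore not compared on equal terms. The summed level of the markers was 443 to 1059 CPM in protoplasted roots and 9320 to 25435 CPM in whole roots. A single gene, Solyc09g082280, held 3307 to 15018 CPM of the whole-root sums. None of the 50 marker genes was without a count in protoplasts. In bulk RNA, fewer cells of a type and less RNA per cell cannot be told apart.

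Of the 54 WRKY loci in the table, 50 had a count in at least 1 library and 44 had enough counts to be tested. The other 10 comprised 4 without any count (Solyc02g094270, Solyc03g082750, Solyc04g056360 and Solyc05g045710) and 6 with at most 20 counts in any library (Solyc01g079360, Solyc04g051540, Solyc04g072070, Solyc05g012500, Solyc05g050340 and Solyc06g048870). At an adjusted p under 0.05, 17 WRKY loci stood higher and 8 lower in protoplasts (quasi-likelihood tests of edgeR, Benjamini-Hochberg adjustment over 15966 genes, n = 3 per group), and 19 were not called. Higher loci made up 38.6% of the WRKY loci tested, against 17.0% of all genes tested. Lower loci made up 18.2% of the WRKY loci tested, against 18.7% of all genes, so the share of lower loci was that of the background. Past a log2 fold change of 2, the threshold of the methods for protoplast-induced genes, stood 14 WRKY loci (31.8%), against 4.15% of all genes tested. Below a log2 fold change of -2 stood 3 loci (6.82%), against 9.78% of all genes. The median log2 fold change was 0.58 over the 44 loci and 0.02 over all genes tested.

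**Figure D1:**
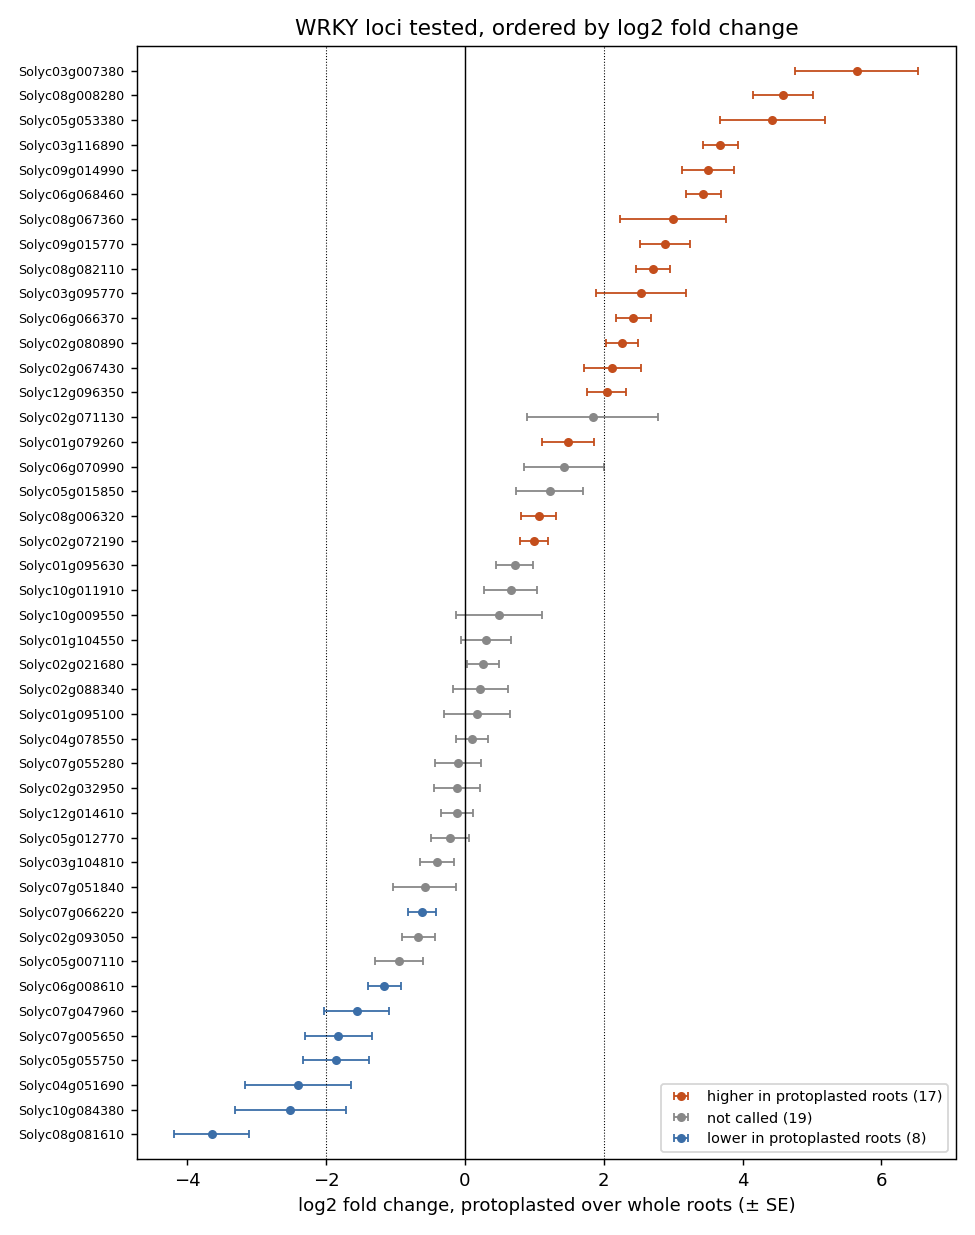
Log2 fold change (protoplasted over whole roots, x axis) of the 44 WRKY loci tested, with bars for the standard error from edgeR and dotted lines at -2 and 2; n = 3 libraries per group. The 17 loci called higher lie between 0.99 and 5.64, the 8 called lower between -3.65 and -0.62.

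The filter on low counts let some of these loci pass through 1 group alone, and such loci had to differ. The filter's minimum of 1.77 CPM was reached only in protoplasts by 3 of the 17 higher loci (Solyc03g007380, Solyc05g053380 and Solyc08g008280). Only in whole roots was it reached by 4 of the 8 lower loci (Solyc04g051690, Solyc05g055750, Solyc08g081610 and Solyc10g084380). All 3 loci below a log2 fold change of -2 are among these 4. The tests of the loci named here are therefore no support for a difference. In every library the minimum was reached by 29 of the 44 loci.

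Libraries of the same replicate number were treated as pairs in a second fit, although the labels do not say that they share a batch of roots. In a blocked edgeR fit, with a term for the replicate number, 21 WRKY loci were higher and 10 lower, where 25.0% of all genes tested were higher and 24.3% lower. No call was lost. The 6 loci gained were Solyc01g095630, Solyc02g071130, Solyc05g015850 and Solyc06g070990, which were higher, and Solyc02g093050 and Solyc05g007110, which were lower.

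As a family, WRKY transcripts took 0.187%, 0.247% and 0.253% of the estimated counts in protoplasted replicates 1, 2 and 3, and 0.119%, 0.123% and 0.116% in whole-root replicates 1, 2 and 3. The lowest protoplasted library thus stood above the highest whole-root library, and the ratio of the means was 1.92. The 17 higher loci, which were defined by their rise, summed to 1918 ± 368 CPM in protoplasts and 564 ± 29.2 CPM in whole roots (SD, n = 3). The 8 lower loci summed to 57.3 ± 0.278 CPM in protoplasts and 127 ± 12.9 CPM in whole roots, so that they were a small part of the family in both groups. The 19 loci not called summed to 451 ± 37.7 CPM in protoplasts and 438 ± 44.7 CPM in whole roots. Levels of at least 10 CPM were reached by 28, 26 and 27 loci in the protoplasted libraries and by 19, 24 and 22 in the whole-root libraries.

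**Figure D2:**
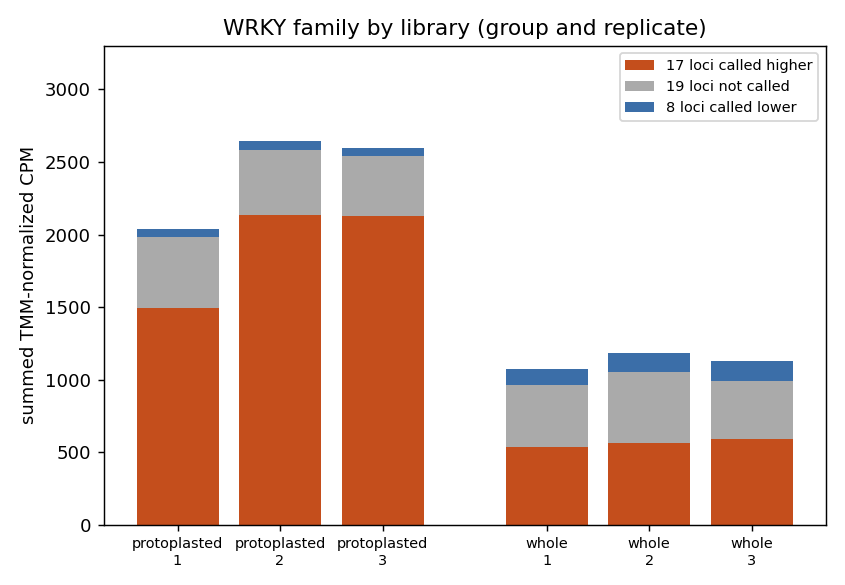
Summed TMM-normalized CPM of the 44 WRKY loci tested (y axis) in each library, stacked by call, protoplasted replicates 1 to 3 on the left and whole-root replicates 1 to 3 on the right. The loci called higher sum to between 1493 and 2135 CPM in protoplasts and between 535 and 593 CPM in whole roots, while the loci not called stay between 401 and 489 CPM in all 6 libraries.

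A single locus, Solyc08g006320 on chromosome 8, was the most abundant family member in both groups. It had 464, 788 and 769 CPM in protoplasted replicates 1, 2 and 3, and 297, 303 and 366 CPM in whole-root replicates 1, 2 and 3. The groups did not overlap, and the log2 fold change was 1.06 (standard error, SE, 0.25, edgeR adjusted p = 0.0114). Protoplasted replicate 2 was the highest library, and without it the adjusted p was 0.0670 in edgeR. Its share of the family's counts was 27.4% ± 4.04 in protoplasts and 28.4% ± 3.47 in whole roots (SD, n = 3), so its share was about the same in both groups.

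Behind this locus the order of abundance differed between the groups. In protoplasts the next 7 loci by mean level were Solyc09g015770, Solyc06g066370, Solyc04g078550, Solyc06g068460, Solyc02g072190, Solyc02g080890 and Solyc08g082110, at 287, 168, 165, 154, 148, 139 and 75.3 CPM. Solyc09g015770 (SD 100) and Solyc06g066370 (SD 29.6) were apart by more than the larger SD, whereas each neighbouring pair from Solyc06g066370 to Solyc02g080890 lay within it. In whole roots the order after Solyc08g006320 was Solyc04g078550, Solyc02g072190, Solyc07g066220, Solyc07g055280, Solyc09g015770, Solyc05g012770 and Solyc05g007110, at 154, 74.2, 50.9, 41.6, 39.0, 33.1 and 33.0 CPM. Solyc06g068460 ranked 5 in protoplasts and 18 in whole roots, and Solyc08g082110 ranked 8 in protoplasts and 21 in whole roots. In whole roots the loci of ranks 1 to 4 were each apart from the next by more than 1 SD, up to the step between Solyc07g066220 and Solyc07g055280 (SD 16.6), which was smaller, as were the later ones.

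The abundant loci with the largest rises came from chromosomes 9, 6, 2, 3 and 8. Solyc09g015770 had 174, 365 and 323 CPM in protoplasted replicates 1, 2 and 3, and 50.7, 40.6 and 25.8 CPM in whole-root replicates 1, 2 and 3. All 3 protoplasted libraries lay above all whole-root libraries, with a log2 fold change of 2.88 (SE 0.36, edgeR adjusted p = 9.15e-04). Solyc06g068460 had 129, 146 and 187 CPM in protoplasts and 16.9, 12.2 and 13.5 CPM in whole roots. The lowest protoplasted library was thus far above the highest whole-root library, and the log2 fold change was 3.44 (SE 0.25, edgeR adjusted p = 2.44e-04).

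Solyc06g066370, on the same chromosome, had 134, 185 and 185 CPM in protoplasts and 24.0, 36.0 and 34.0 CPM in whole roots. Replicate 1 was the lowest library of each group, and the log2 fold change was 2.42 (SE 0.25, edgeR adjusted p = 5.16e-04). In Solyc02g080890, too, replicate 1 was the lowest of each group, with 109, 148 and 160 CPM in protoplasts and 25.6, 29.8 and 31.5 CPM in whole roots. Its log2 fold change was 2.26 (SE 0.23, edgeR adjusted p = 4.79e-04). Solyc03g116890 had 58.4, 59.9 and 73.7 CPM in protoplasts and 5.59, 5.33 and 3.98 CPM in whole roots. Replicate 3 was its highest library in protoplasts and its lowest in whole roots, at a log2 fold change of 3.68 (SE 0.25, edgeR adjusted p = 2.13e-04).

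Solyc08g082110 varied little within protoplasts, with 78.9, 76.7 and 70.4 CPM, and had 12.3, 13.7 and 8.47 CPM in whole roots. Its log2 fold change was 2.71 (SE 0.25, edgeR adjusted p = 3.47e-04). Kallisto gave this locus fractional counts in each of the 6 libraries, which happens where reads also match another transcript, and its level is therefore uncertain. Solyc09g014990 had 35.5, 35.6 and 27.0 CPM in protoplasts and 3.84, 3.33 and 1.38 CPM in whole roots, a log2 fold change of 3.50 (SE 0.38, edgeR adjusted p = 6.00e-04). In both groups replicate 3 was its lowest library.

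**Figure D3:**
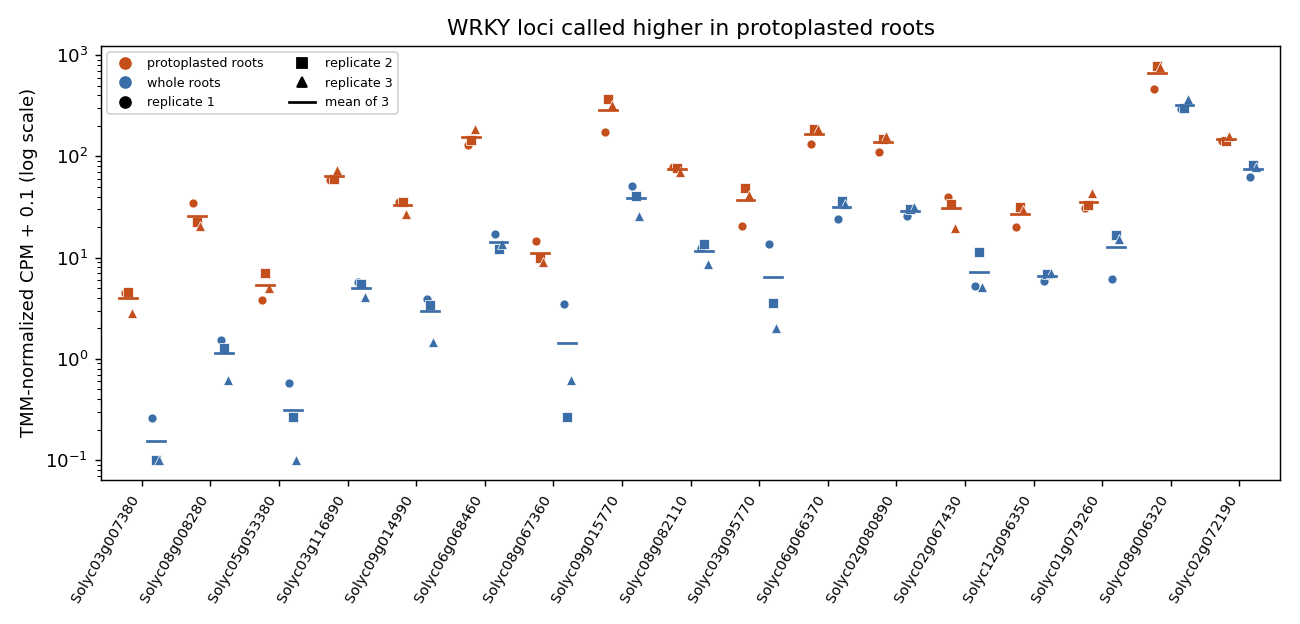
TMM-normalized CPM plus 0.1 (log axis) of the 17 WRKY loci called higher, ordered by log2 fold change; points are single libraries (circle, square and triangle for replicates 1, 2 and 3), lines the mean of 3, protoplasted roots left of whole roots. At every locus the 3 protoplasted points lie above the 3 whole-root points, and the 3 largest gaps are at loci with at most 1.44 CPM in any whole-root library.

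Near the limit of detection in whole roots, the largest fold changes were found. Solyc08g008280 had 34.4, 22.4 and 20.3 CPM in protoplasts and 1.44, 1.17 and 0.519 CPM in whole roots, where it had 9, 7 and 3 counts. It rose by a log2 fold change of 4.59 (SE 0.43, edgeR adjusted p = 3.56e-04). Solyc03g007380 had 21, 22 and 15 counts in protoplasts, against 1, 0 and 0 counts in whole roots. From these sums the ratio was 69.0, with an exact 95% counting interval of 11.9 to 2771. Its fitted log2 fold change of 5.64 (edgeR adjusted p = 0.00153) depends on the prior count and is no bound. Solyc05g053380 had 18, 34 and 27 counts in protoplasts, against 3, 1 and 0 counts in whole roots. Here the ratio was 23.5 (exact 95% counting interval 8.82 to 88.3), and the adjusted p was 0.00257 in edgeR. These intervals cover counting error only. All 3 loci reached the filter's minimum in protoplasts alone, so their adjusted p-values are no support for a rise.

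Whole-root replicate 1 stood apart at several loci that rose. Solyc08g067360 had 14.4, 9.87 and 9.05 CPM in protoplasts and 3.36, 0.167 and 0.519 CPM in whole-root replicates 1, 2 and 3. It had 21, 1 and 3 counts in the whole-root libraries, so that replicate 1 held most of them. The log2 fold change was 3.00 (SE 0.76, edgeR adjusted p = 0.0160), and 4.93 without whole replicate 1. Without protoplasted replicate 1 or 2 its adjusted p was 0.0505 or 0.0544 in edgeR. Solyc03g095770 showed the same imbalance, with 20.7, 48.3 and 41.5 CPM in protoplasts and 13.4, 3.50 and 1.90 CPM in whole roots. It was higher by a log2 fold change of 2.54 (SE 0.65, edgeR adjusted p = 0.0165), which was 3.75 without whole replicate 1, and its adjusted p was 0.0755 without protoplasted replicate 2 and 0.0637 without whole replicate 2.

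Solyc02g071130 had 7.10, 8.64 and 5.98 CPM in protoplasts and 5.27, 0.666 and 0 CPM in whole roots, where it had 33, 4 and 0 counts. Its groups did not overlap, and yet it did not pass the test (log2 fold change 1.84, SE 0.95, edgeR adjusted p = 0.160). With the replicate block the adjusted p was 0.0360, and without whole replicate 1 the log2 fold change was 4.33 with an adjusted p of 0.00555. Whole replicate 1 was the highest whole-root library at 9 of the 17 higher loci, and at 35.1% of all genes tested. It was the highest at 20 of the 44 WRKY loci tested (45.5%).

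The other higher loci rose less. Solyc02g067430 had 39.9, 33.7 and 19.4 CPM in protoplasts and 5.11, 11.2 and 5.01 CPM in whole roots, a log2 fold change of 2.12 (edgeR adjusted p = 0.00522). Solyc12g096350 had 20.0, 31.3 and 29.2 CPM in protoplasts and 5.75, 6.83 and 6.91 CPM in whole roots, a log2 fold change of 2.04 (edgeR adjusted p = 0.00127). These were the smallest rises past the log2 threshold of 2; the nearest called locus below it was Solyc01g079260, at 1.49. Solyc02g072190, of rank 3 in whole roots, had 141, 141 and 160 CPM in protoplasts and 62.8, 81.3 and 78.5 CPM in whole roots. It was higher by a log2 fold change of 0.99 (SE 0.20, edgeR adjusted p = 0.00623), the smallest rise among the 17.

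Among loci that lie close together on a chromosome by their locus numbers, the first of a pair on chromosome 1 rose. Solyc01g079260 had 30.7, 33.3 and 43.1 CPM in protoplasts and 6.07, 16.8 and 15.2 CPM in whole roots, a log2 fold change of 1.49 (SE 0.37, edgeR adjusted p = 0.0154). Without protoplasted replicate 2 its adjusted p was 0.0513 in edgeR. Its neighbour in the list, Solyc01g079360, had 5, 3 and 4 counts in protoplasts and 11, 15 and 10 counts in whole roots and was too low to be tested. The difference between the pair was not tested. On chromosome 8 the list places Solyc08g067340 beside Solyc08g067360; the first was not analysed here.

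The 8 lower loci were mostly of low abundance. Solyc08g081610 on chromosome 8 was the furthest below, with 0.417, 0.823 and 1.45 CPM in protoplasts and 6.71, 13.5 and 14.9 CPM in whole roots. The counts behind these levels were 2, 4 and 8 in protoplasts, and the log2 fold change was -3.65 (SE 0.54, edgeR adjusted p = 0.00156). Solyc04g051690 had 0, 6 and 10 counts in protoplasts and 47, 32 and 22 counts in whole roots, a log2 fold change of -2.40 (SE 0.76, edgeR adjusted p = 0.0370). Solyc10g084380 had 2, 4 and 0 counts in protoplasts and 14, 12 and 17 counts in whole roots, a log2 fold change of -2.51 (SE 0.80, edgeR adjusted p = 0.0345). All 3 loci reached the filter's minimum in whole roots alone, and the last 2 calls rested on few counts. Solyc04g051690 lost its call without protoplasted replicate 2, whole replicate 1 or whole replicate 2 (edgeR adjusted p of 0.0822 to 0.107), and Solyc10g084380 lost it without any library other than protoplasted replicate 2 (0.0597 to 0.0944).

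The remaining lower loci fell by log2 fold changes between -1.85 and -0.62. Solyc05g055750 had 0.835, 1.03 and 0.905 CPM in protoplasts and 2.56, 4.0 and 3.63 CPM in whole roots (log2 fold change -1.85, edgeR adjusted p = 0.0158). It reached the filter's minimum in whole roots alone, so this adjusted p is no support for a fall. Solyc07g005650 had 3.55, 1.03 and 1.63 CPM in protoplasts and 7.19, 6.33 and 8.47 CPM in whole roots (log2 fold change -1.82, edgeR adjusted p = 0.0192). Of the 6 listed loci on chromosome 7, 3 were called lower and 0 higher. The share of all genes of that chromosome was not computed, so no pattern by chromosome is read from this. Solyc07g047960, also on chromosome 7, was the only called locus whose groups overlapped. It had 4.17, 3.29 and 7.79 CPM in protoplasts and 7.67, 17.99 and 19.7 CPM in whole roots (log2 fold change -1.56, edgeR adjusted p = 0.0304). The calls of Solyc05g055750, Solyc07g005650 and Solyc07g047960 depended on single libraries. Solyc05g055750 lost its call without protoplasted replicate 1 or 2 or whole replicate 2 or 3 (edgeR adjusted p of 0.0508 to 0.0699), as did Solyc07g047960 (0.0855 to 0.109), and Solyc07g005650 lost it without protoplasted replicate 2 (0.0603) or whole replicate 3 (0.0521).

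The last 2 of the lower loci were more abundant. Solyc06g008610 had 12.3, 15.8 and 13.04 CPM in protoplasts and 35.3, 28.0 and 28.9 CPM in whole roots, a log2 fold change of -1.16 (SE 0.24, edgeR adjusted p = 0.00623). Solyc07g066220, of rank 4 in whole roots, had 35.7, 33.5 and 30.4 CPM in protoplasts and 43.5, 54.1 and 55.1 CPM in whole roots. Its groups were separate but its change was small, at a log2 fold change of -0.62 (SE 0.21, edgeR adjusted p = 0.0454), and it lost its call without any library other than whole replicate 1. The number of lower loci was 8 with all libraries, but 4 without protoplasted replicate 1 and 3 without protoplasted replicate 2, whole replicate 2 or whole replicate 3. Over all genes the number of lower genes also fell, to 2400, 2059, 2186 and 2374 in these 4 fits, against 2981 with all libraries. The fall of the exodermal trajectory markers stands beside these loci (443 to 1059 CPM in protoplasts, 9320 to 25435 CPM in whole roots), and the part of the exodermis in their levels was not tested.

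**Figure D4:**
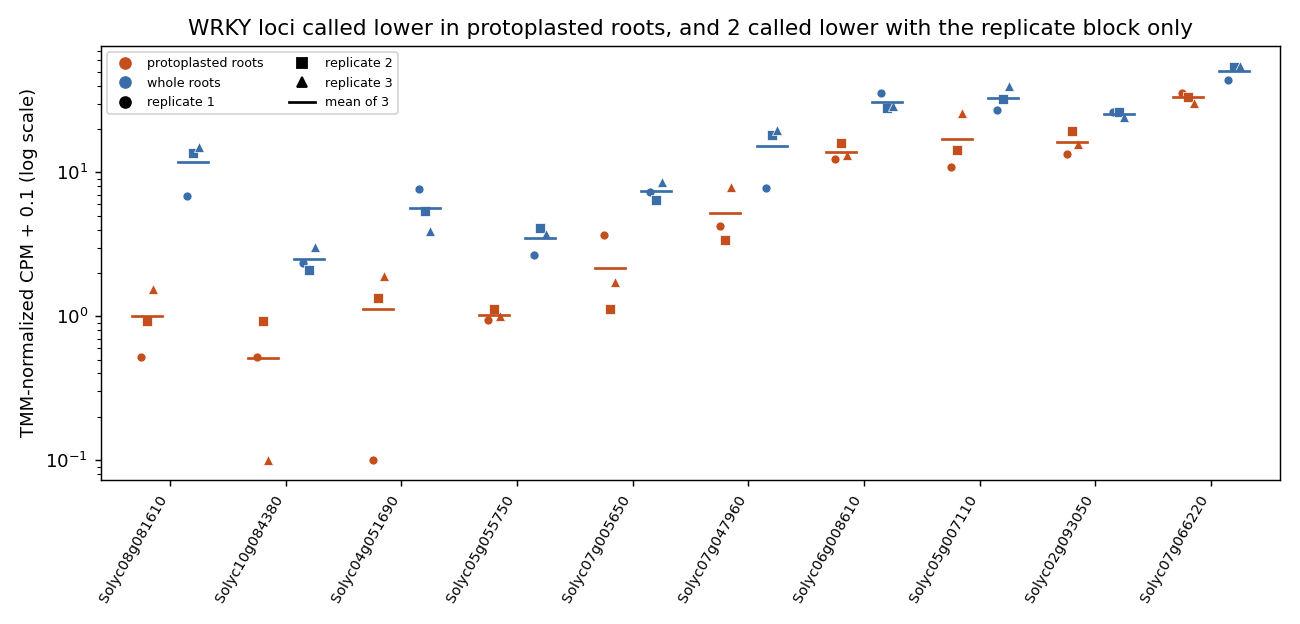
TMM-normalized CPM plus 0.1 (log axis) of the 8 WRKY loci called lower and of Solyc05g007110 and Solyc02g093050, ordered by log2 fold change; points are single libraries (circle, square and triangle for replicates 1, 2 and 3), lines the mean of 3, protoplasted roots left of whole roots. The groups overlap at Solyc07g047960 only, and protoplasted replicate 1 of Solyc04g051690 and protoplasted replicate 3 of Solyc10g084380 had no count.

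Solyc02g093050 belongs to the royalblue module, a set of genes co-expressed with suberin genes. It had 13.4, 19.3 and 15.6 CPM in protoplasts and 26.4, 26.1 and 24.2 CPM in whole roots. All protoplasted libraries lay below all whole-root libraries, but the locus did not pass the test (log2 fold change -0.67, SE 0.24, edgeR adjusted p = 0.0563). With the replicate block its adjusted p was 0.0246, and its adjusted p was 0.0476 in limma-voom and 0.0462 in DESeq2. A list of 14 other transcription factors from the module, which does not hold all of its factors (MYB, homeobox-leucine zipper, bHLH, ethylene-responsive, LOB domain and NF-Y proteins by their annotation), was set beside it, and 12 of them were tested.

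Of these 12 factors, 11 were lower and 1 was higher in protoplasts, with a median log2 fold change of -3.06, where 18.7% of all genes tested were lower, 17.0% higher, and the median was 0.02. Solyc01g096320, annotated as a homeobox-leucine zipper protein, had 1.04, 0.411 and 2.17 CPM in protoplasts and 80.4, 51.0 and 82.3 CPM in whole roots (log2 fold change -5.82, edgeR adjusted p = 2.64e-04). Every one of the 11 had a fold change larger in size than that of Solyc02g093050, and the nearest to it was the LOB domain gene Solyc04g077990 (log2 fold change -1.61, edgeR adjusted p = 0.0163). The factor that was higher was Solyc04g071770, annotated as an ethylene-responsive transcription factor, with 3.34, 3.70 and 6.70 CPM in protoplasts and 0.799, 1.83 and 1.90 CPM in whole roots (log2 fold change 1.60, edgeR adjusted p = 0.0399). That call was lost whenever a single library was left out. The module's MYB gene Solyc10g084370 carries the locus number next to Solyc10g084380, the lower WRKY locus of chromosome 10, and had 0.835, 2.47 and 3.44 CPM in protoplasts and 23.8, 38.8 and 50.3 CPM in whole roots (log2 fold change -4.03, edgeR adjusted p = 7.89e-04). This neighbour was picked after its values had been seen. Strand was not stated for the counting, and whether the neighbours overlap or share reads was not tested.

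The 19 loci that were not called spanned log2 fold changes of -0.95 to 1.84, with adjusted p-values of 0.0563 to 0.842 in edgeR's quasi-likelihood test. Solyc04g078550, the second most abundant WRKY locus in whole roots, had 201, 162 and 133 CPM in protoplasts and 168, 167 and 127 CPM in whole roots. Its groups overlapped, with a log2 fold change of 0.10 (SE 0.23, adjusted p = 0.771). The other loci nearest to 0 were Solyc07g055280, with 52.0, 36.2 and 28.6 CPM in protoplasts and 36.1, 60.3 and 28.5 CPM in whole roots (log2 fold change -0.10), and Solyc02g032950, with 11.9, 7.20 and 12.5 CPM in protoplasts and 8.31, 13.99 and 11.9 CPM in whole roots (log2 fold change -0.11). For these 3 loci the sign of the change depended on which libraries were used.

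Several uncalled loci leaned one way in all pairs of libraries. Solyc05g007110 had 10.9, 14.2 and 25.9 CPM in protoplasts and 27.0, 32.1 and 39.8 CPM in whole roots. Replicate 3 was its highest library in each group, the adjusted p was 0.0595 in edgeR's quasi-likelihood test without the block and 0.00405 with it, and its estimated counts were not whole in any library, so that its level is uncertain. Solyc01g095630 had 35.7, 58.8 and 57.4 CPM in protoplasts and 29.7, 37.5 and 25.1 CPM in whole roots, for which the adjusted p changed to 0.0208 with the block, against 0.0665 without it. Of lower abundance were Solyc05g015850, with 7.30, 6.17 and 7.79 CPM in protoplasts and 1.28, 3.00 and 4.84 CPM in whole roots (adjusted p 0.0333 with the block, 0.0777 without), and Solyc06g070990, with 4.59, 2.47 and 1.99 CPM in protoplasts and 1.76, 0.666 and 0.864 CPM in whole roots (adjusted p 0.0465 with the block, 0.0836 without).

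The other 10 uncalled loci lay between log2 fold changes of -0.58 (Solyc07g051840) and 0.66 (Solyc10g011910). The most abundant of these were Solyc02g021680, which averaged 36.7 CPM in protoplasts and 30.6 CPM in whole roots, and Solyc05g012770, which averaged 28.5 CPM in protoplasts and 33.1 CPM in whole roots. Solyc03g104810 and Solyc12g014610 averaged 16.9 and 18.6 CPM in protoplasts and 22.4 and 20.2 CPM in whole roots, while Solyc01g095100, Solyc01g104550, Solyc02g088340 and Solyc10g009550 averaged at most 13.04 CPM in either group.

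The spread between replicates differed between the called sets. The median coefficient of variation over the 44 loci was 23.9% in protoplasts and 24.3% in whole roots, and over all genes tested it was 25.1% in protoplasts and 25.2% in whole roots. It was 22.3% in protoplasts and 32.1% in whole roots over the 17 higher loci. Over the 8 lower loci it was 52.4% in protoplasts and 21.2% in whole roots, so that each set varied more in the group where it was low. Counting error is larger at low counts, and genes of like abundance were not set beside these loci. Within protoplasts, replicate 1 was the lowest library at 10 of the 17 higher loci, and over all genes tested it was the lowest at 6036 of 15966. Of the 44 loci tested, 21 (47.7%) had all protoplasted libraries above all whole-root libraries, against 25.1% of all genes tested, and 9 (20.5%) had them all below, against 25.6% of all genes tested. Among the 21 are 3 loci, and among the 9 are 4, that reached the filter's minimum in 1 group only. The separation of these loci is no support for a difference, and the share of such loci among all genes was not computed.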

How the data were processed

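Bulk 3′ RNA-seq of 3 protoplasted and 3 whole-root samples was analysed, grouped by sample title and matched to table columns by sample description. Per the labels and methods, the authors trimmed reads with Trim Galore 0.6.6, quantified read 1 against ITAG4.1 transcripts in Kallisto 0.46.2, and deposited estimated counts per gene model, without normalization; Kallisto divides reads that match several transcripts. Replicates were not described further, so p-values measure the spread between these samples.

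Estimated counts were rounded, filtered by filterByExpr (minimum count 10, minimum total 15), TMM-normalized and fitted in edgeR 4.0.16 (R 4.3.3) over all 15966 genes kept (quasi-likelihood test, group only, Benjamini-Hochberg adjustment). Standard errors were derived from the quasi-likelihood F statistic. A replicate block, leaving out each library, DESeq2 1.42.0, voom in limma 3.58.1 and other normalizations, filters and thresholds served as alternatives. The code was tested on simulated data. Replicate numbers come from the titles, which do not state a pairing. Deviations of same-numbered libraries correlated at 0.429, 0.114 and 0.538 over all genes tested, weakly for replicate 2. They were taken as paired in the blocked fits only. No 2 libraries of a group matched within counting noise.

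Loci named were the 12 largest called rises past a log2 fold change of 2, all called falls past -2, the 8 most abundant loci, the 3 nearest 0, pairs with locus numbers at most 100 apart, and Solyc02g093050; other loci were named after their values were seen, to account for the family. Members and lists were chosen with earlier results of these data known. None of the 60 loci matched the RefSeq gene table by identifier.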

Additional observations from a re-analysis of the deposited data

How the results depend on the processing

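Of the 17 higher WRKY loci, 13 kept their call at an adjusted p under 0.05 in each of the 15 or 16 alternatives that tested them. Of the 8 lower loci 2 did (Solyc06g008610 in 16 and Solyc08g081610 in 15), and no called locus changed sign. Solyc08g081610 and 3 of these 13 (Solyc03g007380, Solyc05g053380 and Solyc08g008280) reached the main filter's minimum in 1 group only. Fewer loci can be tested with at least 10 counts in every library, a filter that removes loci low in either group. Of 29 tested, 12 were higher and 5 lower, where 1831 of 12552 genes were higher and 1992 lower. Past a log2 fold change of 2 stood 8 loci, and 0 passed -2. The median log2 fold change was 0.21 over the 29 loci and 0.01 over all genes tested. Of the royalblue factors 2 were lower and 0 higher, and 11 trajectory markers were lower. The filter also removed factors and markers below 10 counts in any library. The numbers left to test are not given here, so these counts are not set against those of the main fit. At an adjusted p under 0.01, 13 WRKY loci were higher and 2 lower, 12 passed 2, 1 passed -2 and 0 royalblue factors were higher. With glmTreat, which tests against the threshold itself, 7 loci passed 2 and 1 passed -2. Numbers over all genes were not computed for these 2 settings, nor past 2 or -2 with the stricter filter. With library size only, 0 royalblue factors were higher, and the median of all genes was -0.14 against 0.02 with TMM; WRKY calls are relative to that shift. With TMM effective library sizes the family took 0.113% of counts in whole roots in place of 0.119%, and 0.243% in protoplasts in place of 0.229%. The ratio of the means was then 2.14 in place of 1.92.

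With the replicate block in edgeR, 21 WRKY loci were higher and 10 lower, and the block changed no other call than the 6 named.

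Leaving out 1 library at a time, 13 to 18 loci were higher and 3 to 7 lower, where 1522 to 2747 of all genes were higher and 2059 to 3082 lower, against 2711 and 2981 with all libraries; 11 to 13 loci were past 2 and 1 to 3 past -2 (1 without whole replicate 2); 9 to 11 royalblue factors were lower and 0 higher, 45 to 49 markers were lower, the WRKY median was 0.40 to 0.69, and the family share was 0.217% to 0.250% in protoplasts and 0.117% to 0.121% in whole roots. The cause was not tested, beyond the smaller number of samples.

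Signs reversed for 5 loci that were never called. Leaving out 1 library at a time gave log2 fold changes of -0.0945 to 0.545 for Solyc01g095100 (below 0 without protoplasted replicate 1 or 3 or whole replicate 1), -0.301 to 0.0705 for Solyc02g032950 (above 0 without protoplasted or whole replicate 2), -0.0871 to 0.190 for Solyc04g078550 (below 0 without protoplasted replicate 1 or whole replicate 3), -0.399 to 0.0014 for Solyc05g012770 (above 0 without whole replicate 2) and -0.381 to 0.263 for Solyc07g055280 (above 0 without protoplasted replicate 3 or whole replicate 2). Solyc04g078550 was also at -0.0764 with library size only and at -0.0043 with at least 10 counts in every library. The cause was not tested.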
